A study of Homo sapiens with 2 samples.

Results

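Peak lists of PLC8024 cells, a human liver cancer line, were compared for the wide peaks that occurred in the control list alone. The set held every control peak on chromosomes 1 to 22 or X that was at least 500 bp wide and shared 0 bp with any peak of the drug list. It contained 3147 of the 49854 control peaks. On these chromosomes 60.9% of control peaks of any width shared no base with a drug peak, against 22.2% of the 14185 control peaks of at least 500 bp and 78.0% of those under 500 bp. Width, presence in control and absence from drug chose the set, so the set was chosen by these measured values, which describe it and support nothing.

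The series profiled 1 control library and 1 library of drug-treated cells (10 nM, 6 hours) by CUT&Tag, in which an antibody bound in permeable cells or nuclei steers a transposase that cuts and tags the DNA nearby. Which drug and which antibody were used is not named in the labels, and both cultures grew in the same serum-containing medium. IgG and Pol II groups named in the design text were not analysed here. No replicate stands behind either library, so no difference could be set against replicate error and no p-value was computed, and intervals below are exact 95% binomial intervals that cover counting error only. The drug list held 29283 peaks, the files give no read totals, and an effect of the drug, a difference between the libraries in read depth and any other difference between them cannot be told apart.

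Promoters are the stretches around transcription start sites where RNA polymerase II is loaded, and those of broadly used genes are rich in CpG dinucleotides. Enhancers lie in introns and between genes and loop to promoters, and often differ between tissues. A factor or mark that sits on a narrow site gives a narrow peak, whereas modified histones or travelling polymerase can spread over wider stretches. A width reported by a peak caller also grows with the number of reads, so width alone does not name a mark. The score of a peak is the peak caller's own whole number, higher for a stronger peak, and is used here only within the control list or, where named, within the drug list.

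The sequences below are the 250 bases before the transcription start site of 6 genes whose promoters carried strong members of the set, shown so that the promoters discussed later can be read. They come from RefSeq promoter windows of GRCh38.p14, the build of the peak files, and are the strongest promoter members with a window of their own. UBQLN4, the strongest, had no entry. Capitals mark matches on either strand to 9 short motifs, which are spelled out with the promoter results. PGLS lies at chr19:17511399-17511648 on the plus strand, UBE2F at chr2:237966764-237967013 on the plus strand and LAMTOR3 at chr4:99894547-99894796 on the minus strand. THAP7-AS1 lies at chr22:21001672-21001921, ZNRF1 at chr16:74998774-74999023 and SARM1 at chr17:28371444-28371693, each on the plus strand.
PGLS: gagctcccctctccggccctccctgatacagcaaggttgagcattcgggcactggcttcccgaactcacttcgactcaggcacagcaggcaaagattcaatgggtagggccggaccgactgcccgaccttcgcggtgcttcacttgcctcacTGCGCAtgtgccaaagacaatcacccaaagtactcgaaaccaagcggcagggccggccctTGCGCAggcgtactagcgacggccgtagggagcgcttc
UBE2F: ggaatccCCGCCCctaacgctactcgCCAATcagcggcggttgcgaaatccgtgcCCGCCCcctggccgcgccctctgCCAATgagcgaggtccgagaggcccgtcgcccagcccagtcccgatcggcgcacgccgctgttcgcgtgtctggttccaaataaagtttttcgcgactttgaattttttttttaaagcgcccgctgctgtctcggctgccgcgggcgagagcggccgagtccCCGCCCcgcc
LAMTOR3: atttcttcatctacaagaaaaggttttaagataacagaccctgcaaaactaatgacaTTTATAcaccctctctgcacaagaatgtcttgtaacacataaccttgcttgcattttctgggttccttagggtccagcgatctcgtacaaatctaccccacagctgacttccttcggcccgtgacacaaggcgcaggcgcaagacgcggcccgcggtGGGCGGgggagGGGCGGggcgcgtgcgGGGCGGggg
THAP7-AS1: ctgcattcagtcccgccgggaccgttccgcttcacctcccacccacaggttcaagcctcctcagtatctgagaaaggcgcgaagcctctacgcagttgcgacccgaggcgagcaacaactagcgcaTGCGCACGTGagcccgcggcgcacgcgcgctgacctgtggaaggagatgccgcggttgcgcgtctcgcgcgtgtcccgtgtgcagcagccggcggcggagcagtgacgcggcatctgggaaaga
ZNRF1: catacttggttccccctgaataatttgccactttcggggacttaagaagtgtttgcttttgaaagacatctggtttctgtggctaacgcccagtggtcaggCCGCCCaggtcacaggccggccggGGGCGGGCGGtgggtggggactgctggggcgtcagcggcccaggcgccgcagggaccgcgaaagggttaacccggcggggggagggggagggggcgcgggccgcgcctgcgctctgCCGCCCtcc
SARM1: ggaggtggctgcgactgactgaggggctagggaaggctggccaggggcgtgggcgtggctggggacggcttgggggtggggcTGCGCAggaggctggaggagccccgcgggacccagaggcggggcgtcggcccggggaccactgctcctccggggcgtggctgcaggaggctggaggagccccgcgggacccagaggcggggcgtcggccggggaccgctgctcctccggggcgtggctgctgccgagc
The member covered 249 of these 250 bases at PGLS, 247 at THAP7-AS1 and all 250 at the other 4. UBE2F held a pair of CCAAT boxes and 3 GC boxes, and LAMTOR3 held 3 GC boxes and 1 TATA motif. ZNRF1 held 4 GC boxes and no other motif searched. PGLS held 2 NRF1 cores, THAP7-AS1 1 core joined to an E-box, and SARM1 1 core in a stretch of 78.0% GC.

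Most members were modest in strength. Their scores ran from 16 to 505 with a median of 82, against a median of 441 for the 11038 wide control peaks that a drug peak overlapped and 52 for the 25161 narrower control-only peaks. Only 235 members, 7.47% (6.57 to 8.44), scored 200 or more, and 44 scored 300 or more. Widths ran from 500 to 2243 bp with a median of 608 bp, and 133 members, 4.23% (3.55 to 4.99), reached 1000 bp. At the width threshold 20 control-only peaks were exactly 500 bp wide and 30 were 499 bp wide. The strongest just inside lay near UBR2 (score 192), MKKS (182) and NPAS1 (161), and the strongest just outside near NASP (288), FASTK (241) and PTPRB (225).

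**Figure D1:**
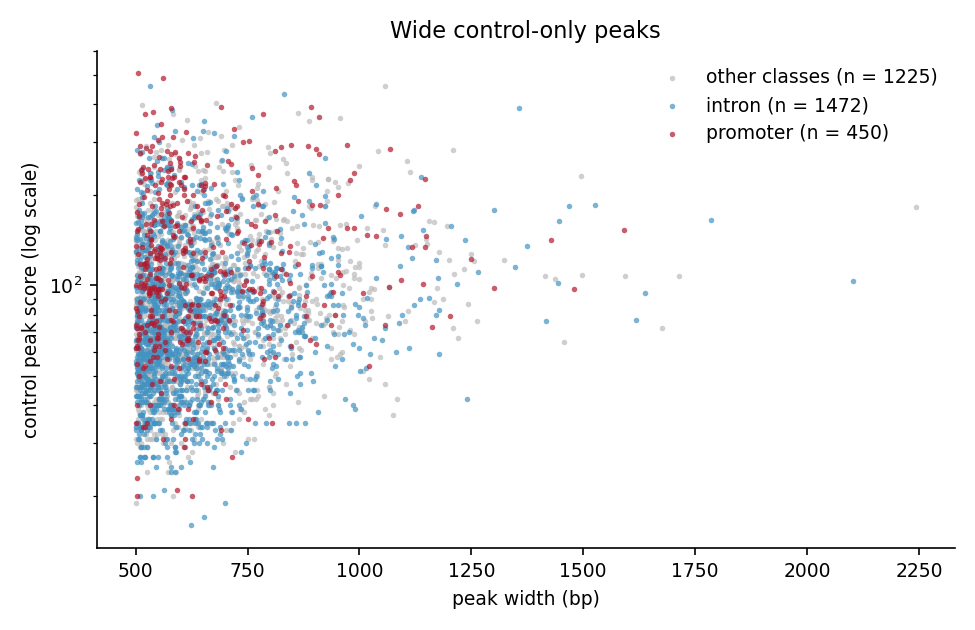
Each point is 1 of the 3147 wide control-only peaks, with its width in bp on the x axis and its control score on a log axis, coloured by annotation class. Most points lie under 713 bp and under a score of 124, the upper quartiles, and the widest peak at 2243 bp scored 182.

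The strongest members stood at genes of several cellular systems. UBQLN4, which escorts ubiquitinated proteins to the proteasome, had a promoter peak of 505 bp on chromosome 1 from 156053759 to 156054263, with a score of 505 and a rank of 6023 in the control list. The nearest drug peak lay 270 bp away, at the promoter of the neighbouring LAMTOR2, and scored 159 in the drug list. PGLS, which acts in the oxidative pentose phosphate route, followed at chromosome 19 from 17511400 to 17511961, with a score of 486 and a width of 562 bp. Its nearest drug peak was 4394 bp away and scored 25. Both were promoters, but the drug list came close to the first and not to the second.

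Further strong members covered cilia, repair, protein modification and growth signalling. IFT140, a subunit of the transport machinery of cilia, had a peak of 1058 bp with a score of 460, 688 bp from a drug peak at its own promoter that scored 524 in the drug list. LIG3, a DNA ligase of base excision repair, had an intron peak of 533 bp with a score of 457, 17080 bp from the nearest drug peak. UBE2F, which attaches the ubiquitin-like protein NEDD8, scored 391 over 690 bp at its promoter. LAMTOR3, a subunit of the Ragulator complex that docks mTORC1 on lysosomes, scored 390 over 891 bp, and the nearest drug peak lay 13925 bp away. Both promoters had no drug peak within 5 kb, unlike that of UBQLN4.

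The remaining members of the top 10 lay in or near TTPAL (intron 1, score 432), LMBR1L (5' UTR, score 402), STX1A, a syntaxin of vesicle fusion (6342 bp upstream, score 396), and FOSB, a subunit of the AP-1 transcription factor (intron 1, score 389). At STX1A the drug list had a promoter peak with a score of 40. ZNRF1, a ubiquitin ligase, and the antisense RNA gene THAP7-AS1 completed the 6 strongest promoter members, with scores of 376 and 387. The strongest member in an exon belonged to MAU2, a cohesin loader (score 359), and lay 203 bp from a drug peak. The strongest in a 3' UTR was named to RTN4RL2 (score 292). YBX1, an RNA-binding protein gene, was named to the strongest member in a non-coding exon (score 266).

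The widest members lay mostly inside or at the ends of genes. The widest of all, 2243 bp with a score of 182, was intergenic on chromosome 14 from 105005525 to 105007767, 14437 bp from the start of the cell cycle gene CDCA4. A peak of 2102 bp (score 103) was named to SENP2, a SUMO protease, from a start site 60338 bp away and lay in an intron. ATP2A2, the calcium pump of the endoplasmic reticulum, held one of 1785 bp in intron 11 of 19. SRM, which makes spermidine, had one of 1713 bp at a termination site. Others of the 10 widest were named to ANKRD23, SEMA4B, SBF1, the small RNA genes MIR6883 and SNORA3B, and IKBKB, a kinase that activates NF-kB, whose promoter peak was 1591 bp wide and scored 153. Of the 133 members of at least 1000 bp, 15 (11.3%, 6.45 to 17.9) lay at a termination site and 53 (39.8%, 31.5 to 48.7) in an intron.

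The location of the members was the second question. Introns held 1472 of them, 46.8% (45.0 to 48.5), intergenic DNA 549, 17.4%, and promoters 450, 14.3% (13.1 to 15.6). In the wide control peaks that a drug peak overlapped, promoters made up 51.6% (50.6 to 52.5) and introns 21.0%. In the narrower control-only peaks promoters made up 8.23% (7.89 to 8.58) and introns 55.3%. The set thus stood between the others for both classes, and the intervals did not overlap. Members were more often in a 3' UTR or at a termination site than either, 10.0% (9.01 to 11.1) against 4.49% (4.11 to 4.90) and 7.56% (7.24 to 7.89). Exons held 7.72% of members (6.81 to 8.71), against 4.69% of wide overlapped and 5.86% of narrower control-only peaks.

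**Figure D2:**
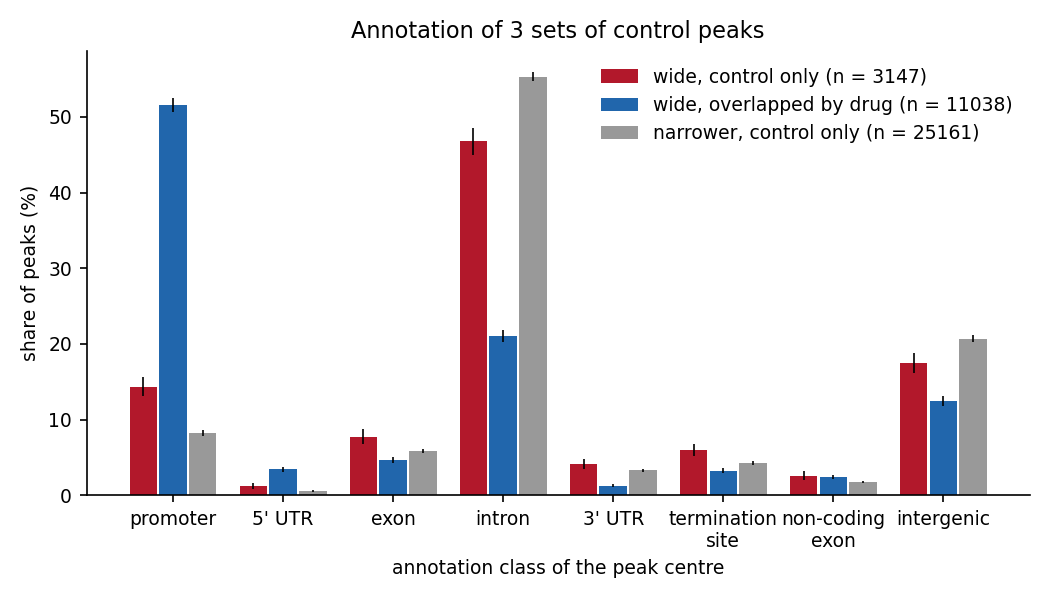
Bars give the share of peaks, in percent, in each annotation class for the 3147 wide control-only peaks, the 11038 wide control peaks overlapped by a drug peak and the 25161 narrower control-only peaks, with exact 95% intervals as lines. Promoters lead the overlapped set at 51.6% and introns lead both control-only sets.

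Members lay farther from start sites than the wide overlapped peaks. Their median distance to the nearest transcription start site was 9785 bp, against 203 bp for wide overlapped peaks and 14228 bp for narrower control-only peaks. Within 1 kb of a start site lay 23.4% of members (21.9 to 24.9), 67.6% of wide overlapped and 12.9% of narrower control-only peaks. Among intron peaks the first intron held 35.2% of members (32.7 to 37.7), 53.6% of wide overlapped peaks and 31.5% of narrower control-only peaks. Of the 866 members inside the gene they were named to and over 1 kb from its start, 25.4% (22.5 to 28.4) lay in the first of 4 equal parts of the gene and 22.4% (19.7 to 25.3) in the last. For wide overlapped peaks of that kind the shares were 33.7% (30.9 to 36.5) and 18.5% (16.3 to 20.9). Repeats held the centre of 3.02% of members, and CpG islands outside promoters and exons that of 5.66%, against 9.96% of wide overlapped peaks.

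The promoter gap between the sets was smaller at equal score. At scores from 100 to under 200, where both wide sets were well filled, promoters made up 18.5% of 937 members (16.0 to 21.1) and 28.4% of 1622 wide overlapped peaks (26.2 to 30.7). Introns made up 40.6% (37.4 to 43.8) and 33.2% (30.9 to 35.5). The intervals stayed apart for both classes. The combined share of 3' UTRs and termination sites was 9.82% (7.99 to 11.9) against 7.40% (6.17 to 8.78), with overlapping intervals. Intervals also overlapped for exons, 6.19% (4.73 to 7.93) against 5.36% (4.32 to 6.57). They overlapped too for CpG islands outside promoters and exons, 7.79% (6.16 to 9.70) against 10.6% (9.15 to 12.2). Within 1 kb of a start site lay 30.9% (28.0 to 34.0) against 43.8% (41.3 to 46.2), with intervals apart. Median widths in that range were 629 and 681 bp.

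The same values can be read as the share of wide control peaks that lacked a drug partner. In scores of 13 to 49 it was 86.7% of 617 wide peaks, in scores of 75 to 99 it was 64.4% of 969, and in scores from 150 to under 200 it was 26.7% of 1092. Above that it fell to 11.0% of 1735 in scores of 200 to 299 and 1.84% of 2339 in scores of 300 to 499, and only UBQLN4 remained of the 4941 wide peaks that scored 500 or more. Promoters lacked a partner less often than introns at scores of 100 to 149, with 35.8% (30.4 to 41.5) against 47.8% (43.6 to 52.0), and from 150 to under 200, with 19.6% (15.4 to 24.3) against 30.9% (26.1 to 36.1). At scores of 75 to 99 they stood at 64.2% and 66.1%, and at 200 to 299 at 10.1% and 11.5%, with overlapping intervals. These shares use the values that chose the set and are a description.

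**Figure D3:**
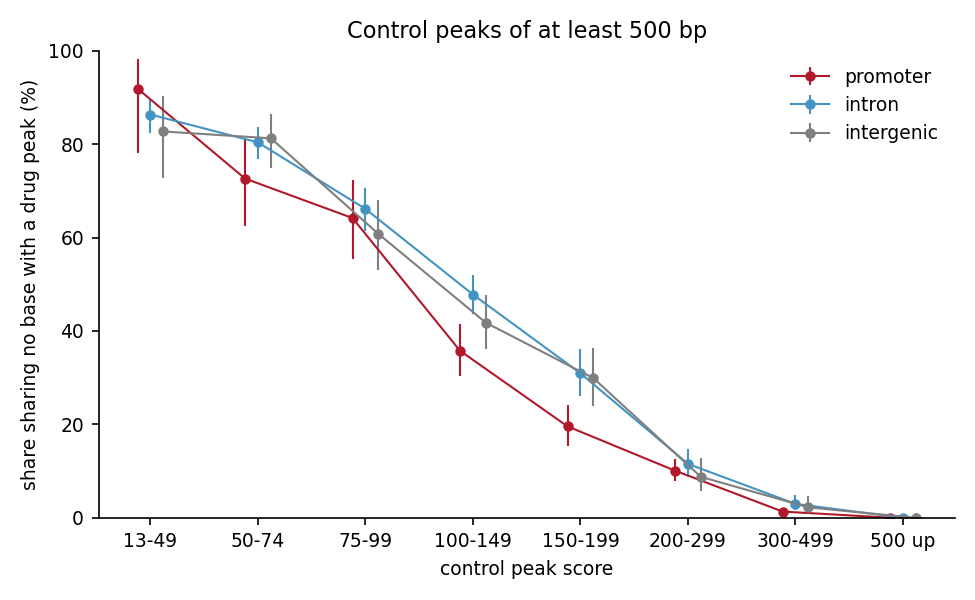
Points give, for control peaks of at least 500 bp in each range of control score, the share in percent that shared no base with a drug peak, for promoters, introns and intergenic peaks, with exact 95% intervals. All 3 classes fall from above 80% in the lowest range to near 0 at scores of 500 and up, and promoters lie under introns at scores from 100 to under 200.

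Wider peaks lacked a drug partner less often. The share was 39.0% of 3791 peaks of 500 to 599 bp, 18.2% of 2123 peaks of 700 to 799 bp and 4.22% of 237 peaks of 1500 bp or more. Scores differed alongside, since members of 500 to 599 bp had a median score of 75 and overlapped peaks of that width one of 284. By chromosome the share ran from 17.2% of 727 wide peaks on chromosome 6 (14.5 to 20.1) to 27.5% of 306 on chromosome 22 (22.5 to 32.8), and the medians of the members' scores ran from 71 to 92.

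The distance to the drug list varied widely among members. The nearest drug peak lay at a median of 9845 bp, and 1 member touched a drug peak without sharing a base. A drug peak lay within 1 kb of 333 members, 10.6% (9.53 to 11.7), within 5 kb of 27.1% (25.6 to 28.7) and within 20 kb of 71.2% (69.6 to 72.8), while 128 members had none within 100 kb. Narrower control-only peaks had a drug peak within 5 kb in 24.7% (24.2 to 25.3). That nearest drug peak was itself on a control peak for 75.02% of members (73.5 to 76.5) and was a promoter peak for 30.9%. Its median score was 60, close to the median of 59 of the whole drug list. Another control peak lay within 1 kb of 732 members, and for 258 of these, 35.2% (31.8 to 38.8), it was overlapped by a drug peak. Over all control peaks on these chromosomes 60.9% shared no base with a drug peak, so the 35.2% is not read as a trait of members. No shares over the whole drug list stand beside the 75.02% and 30.9%, which only describe the set.

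Members of other classes lay near genes whose promoters had a drug peak about as often as other peaks did. Of 2694 members outside promoters with a named gene, 43.6% (41.7 to 45.5) belonged to a gene with a drug promoter peak, against 43.0% of narrower control-only peaks and 45.0% of wide overlapped peaks. Where the gene had a control promoter peak, 75.9% (73.5 to 78.2) of 1335 such members belonged to a gene that also had one in drug. That share was 74.3% for wide overlapped, 74.4% for narrower control-only and 74.5% for all control peaks, so it is near the background. A drug peak of any class was named to the gene of 80.1% of the 2694 members (78.6 to 81.6) and to that of 80.0% of narrower control-only peaks outside promoters (79.5 to 80.5). The annotation gives a peak to the gene with the nearest start site, which need not be the gene it lies in or acts on.

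Several genes gathered more than 1 member. Of the 2637 genes, 404 had at least 2, 73 at least 3, and DNAJB6, a co-chaperone of HSP70 proteins, had 6, with scores from 53 to 108 and widths from 512 to 732 bp. All 6 lay in introns, but the one that scored 62 lay 93595 bp upstream of the DNAJB6 start site. That member was in intron 18 of 22 of a different transcript and was named to DNAJB6 by nearest start site. Of the 8 wide control peaks named to DNAJB6, 2 were overlapped by a drug peak. ASS1, a urea cycle enzyme, had 5 members among 14 wide control peaks. Its members scored 183, 176, 172, 98 and 49, and the last lay 601 bp from the start site and 182 bp from the drug peak at the ASS1 promoter. The ASS1 promoter scored 462 in control and 100 in drug, so the promoter was in both lists. These intron peaks were in control alone by the rule that chose them.

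TGFBR2, the receptor that binds TGF-beta first, had 5 members among 6 wide control peaks. On chromosome 3 they ran from 30626259 to 30672687, between 19985 and 65660 bp downstream of the start site, and scored 125, 114, 54, 174 and 75 in that order. Its promoter peak scored 1285 in control and 457 in drug, and a peak 9142 bp upstream, of 473 bp and therefore not wide, scored 366 and was overlapped by a drug peak that scored 176. The only other drug peak annotated to TGFBR2 scored 45 in an intron and met no control peak. The promoter and the upstream site were in both lists, whereas the 5 wide downstream peaks were in control alone by the rule that chose them. Of all wide control peaks, 79.6% lacked a drug partner at scores of 50 to 74 and 26.7% at scores from 150 to under 200. The part of score at TGFBR2 was not tested.

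Other genes with 5 members were FNDC3B (scores 67 to 177), the ghrelin receptor gene GHSR (41 to 113), FAM107B (35 to 154) and NFKB2, an NF-kB subunit (38 to 110). The FNDC3B promoter scored 1616 in control and 514 in drug. Wide control peaks numbered 17 at FNDC3B, 11 at GHSR, 6 at FAM107B and 6 at NFKB2. Over all wide control peaks 22.2% were members, so a gene with many wide peaks can hold several members. The NFKB2 members lay 8747 to 70046 bp upstream of its start site, and all 10 members of FNDC3B and GHSR lay on chromosome 3 between 172072962 and 172414150. The GHSR members that scored 113 and 57 lay in intron 11 of 25 of the transcript whose introns hold the FNDC3B members. They were named to GHSR by nearest start site, so GHSR is not a clearly separate case. TRAF3, an adaptor of TNF receptors, had 4 members, no overlapped wide peak and no drug peak named to it among 26 control peaks. ZDHHC11, a palmitoyltransferase gene with a near-identical neighbour, also had 4 and no drug peak, and its values are uncertain because reads can be misplaced between copies.

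**Figure D4:**
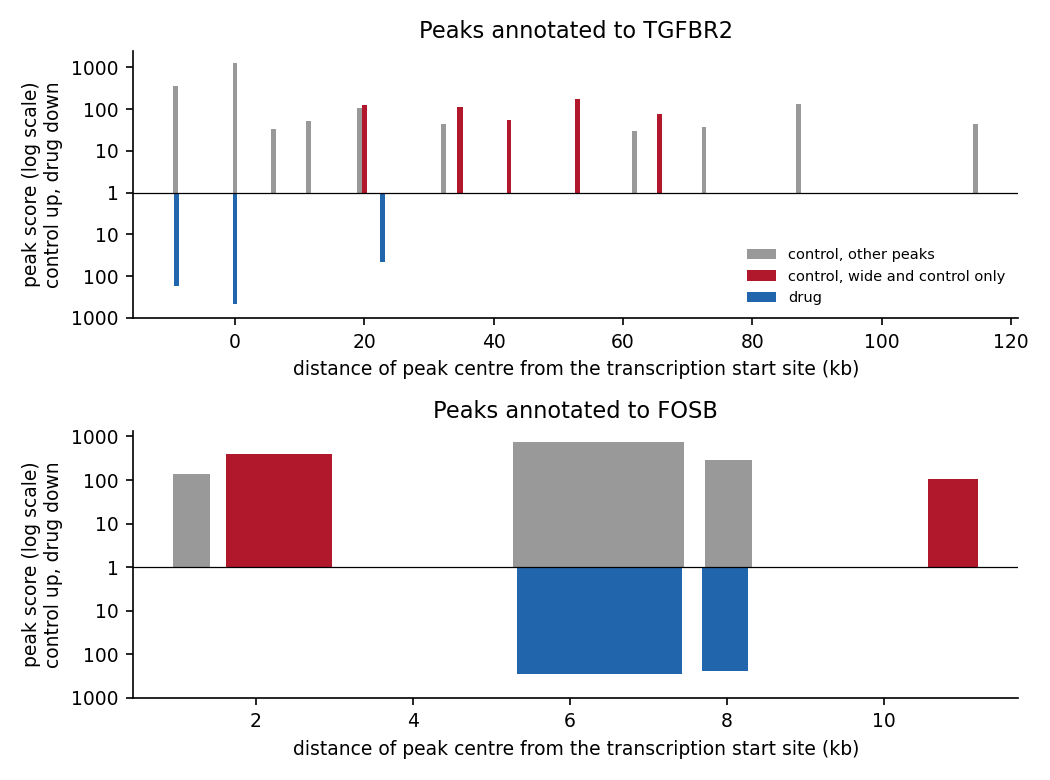
Bars show peaks annotated to TGFBR2 and FOSB, placed by the distance in kb of their centre from the transcription start site, with log-scaled score upward for control and downward for drug and a drawn base at a score of 1. At TGFBR2 the 5 red wide control-only peaks lie downstream of a promoter present in both lists, and at FOSB 2 red peaks flank a pair of peaks present in both. Bars are drawn at least 0.6% of the axis span wide.

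Along the chromosomes most members stood alone. Only 544 of 3147, 17.3% (16.0 to 18.7), lay within about 13 kb of another, against 28.3% of wide overlapped and 58.8% of narrower control-only peaks within their own sets, which differ in size. These 544 formed 247 groups, of which 38 held at least 3 members and 11 at least 4. The largest held 5 over 43144 bp on chromosome 17 by PROCA1, RAB34, NEK8 and TRAF4, with 4 drug peaks between them. No drug peak lay within the span of 191 groups, among them 4 members over 18603 bp at RAC1 and DAGLB (scores 91 to 224), 4 at TGFBR2, 4 at NFKB2, and 4 at MIR6857 and SMC1A. By the rule no member holds a drug peak, and the nearest drug peak lay at a median of 9845 bp from members. No like count for other peaks stands beside the 191, which only describe the set.

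Promoter members were examined for sequence. RefSeq windows of 300 bases, 250 before and 50 after the start, were touched by 320 of the 450 promoter members and 484 of all members. After windows also touched by a wide overlapped peak were set aside, 645 windows belonged to members and 9474 to wide overlapped peaks. A drug peak overlapped the control peak of each of the latter but touched the window itself in only 8940. Of the members' windows 2 were touched by a drug peak. Because only 484 members touched a window, 1 peak can supply several windows. Such windows are not independent, and the intervals over windows below are too narrow. Members' windows had a median GC content of 67.3% and a CpG observed to expected ratio of 0.84, against 66.0% and 0.87 in windows of wide overlapped peaks and 51.0% and 0.30 in 21417 windows with no control peak. The medians of both wide sets were thus close to each other and above those of windows with no control peak.

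Motifs were counted on both strands, and no motif searched lies inside another. The NRF1 core (TGCGCA), bound by a factor that drives nuclear genes for mitochondria, was found in 10.9% of members' windows (8.56 to 13.5), 16.6% of wide overlapped windows (15.9 to 17.4) and 8.21% of all 34789 promoters. The CCAAT box, bound by NF-Y, was in 28.8% (25.4 to 32.5), 39.4% (38.4 to 40.4) and 34.6%. The YY1 motif (AAGATGGC) was in 3.88% (2.52 to 5.67), 6.30% (5.82 to 6.81) and 2.89%. All 3 were less frequent in members' windows than in wide overlapped windows, with intervals apart.

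The GC box (GGGCGG), bound by SP and KLF factors, was in 69.1% of members' windows (65.4 to 72.7), 74.0% of overlapped windows (73.1 to 74.9) and 44.9% of all promoters. The ETS motif (CCGGAAG) was in 18.8% (15.8 to 21.99), 22.9% (22.04 to 23.7) and 10.2%. Both were again less frequent in members' windows, with intervals that just missed each other, whereas AP-1 motifs ran the other way. The AP-1 motif, spelled TGANTCA, was in 6.05% (4.33 to 8.17), 3.62% (3.25 to 4.02) and 7.69%. E-boxes (CACGTG) were in 10.7%, 10.2% and 7.24%, TATA motifs (TATAAA) in 5.12%, 4.30% and 11.6%, and the cyclic AMP response element (TGACGTCA) in 3.41%, 3.68% and 1.84%.

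Over peaks of like score the intervals of all 9 motifs overlapped, although with fewer windows they were wider. Among windows whose peak scored from 100 to under 200, the NRF1 core was in 11.2% of 267 members' windows (7.71 to 15.7) and 11.0% of 729 overlapped windows (8.80 to 13.5). CCAAT boxes were in 26.6% (21.4 to 32.3) and 27.4% (24.2 to 30.8), YY1 motifs in 4.49% and 5.76%, and AP-1 motifs in 4.49% and 4.12%. A drug peak itself touched 590 of these 729 overlapped windows and 1 of the 267 members' windows. A match is a string of letters and not a bound site.

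**Figure D5:**
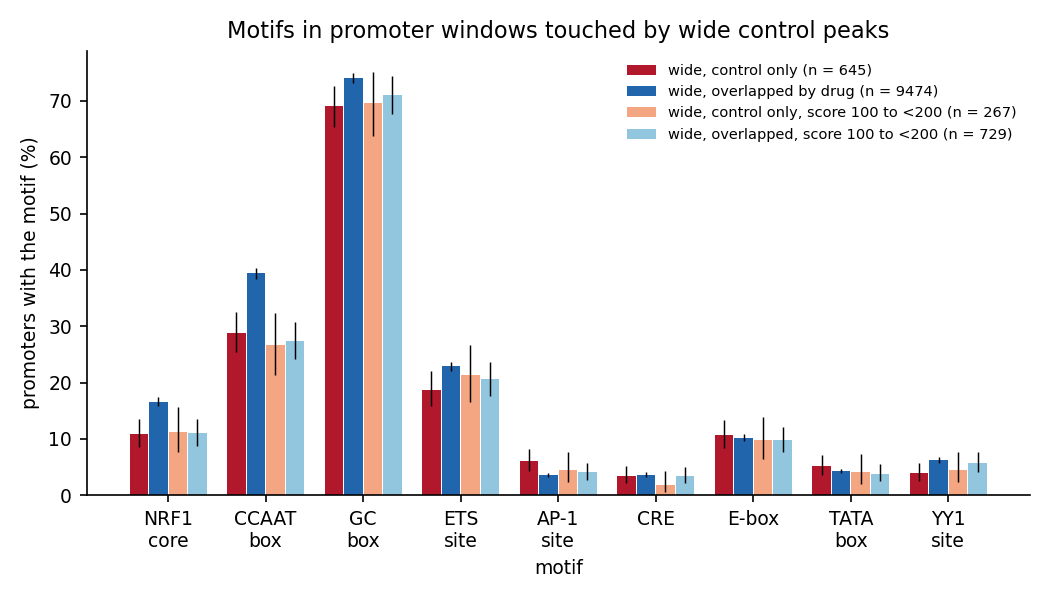
Bars give the share of 300-base promoter windows, in percent, that hold each of 9 motifs on either strand, for windows touched by wide control-only and by wide overlapped peaks, over all scores and for peaks that scored from 100 to under 200, with exact 95% intervals. CCAAT boxes stand at 28.8% and 39.4% over all scores and at 26.6% and 27.4% at equal score.

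Genes were then read by 22 lists of 572 symbols. Over all genes with a wide control peak, 25.7% held at least 1 member, and by peak 22.2% of wide control peaks were members. Beside this background, 12 of 26 genes of the AP-1 and immediate early list, which cells switch on within minutes of a stimulus, held a member, and by peak 17 of 70, 24.3%, which is near the background. None of the 20 genes of that list with a wide promoter peak had a promoter member, and over all genes only 447 of 5998, 7.45%, had one, so this count is near the background too. The median score of the list's members was 143.

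FOSB led this list. Its intron 1 peak, on chromosome 19 from 45469611 to 45470967, was 1357 bp wide and scored 389. The nearest drug peak, 2356 bp away in its 3' UTR, was 2097 bp wide, scored 283 and lay on a control peak that scored 737. A second member of FOSB, 10881 bp from the start site, scored 103. FOS had a member 1342 bp upstream of its start (728 bp, score 215), 444 bp from a drug peak that scored 639. KLF4, a zinc finger factor, had one 15021 bp upstream (score 293), and its promoter was in both lists with 121 in control and 125 in drug. DUSP1, a phosphatase that switches off MAP kinases, had one in an exon (822 bp, score 149), MAFK one outside genes (282), JUND one at its termination site (162) and KLF2 4 with scores of 170, 130, 115 and 61.

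Liver transcription factors held a member in 7 of 17 genes (41.2%) and in 10 of 32 wide peaks (31.25%). The background was 25.7% by gene and 22.2% by peak. The wide control peaks of this list had a median score of 176.5, against 313 for all genes. The part of score in this count was not tested. Promoter members were found, among others, at CEBPD (571 bp, score 279), FOXA1 (779 bp, 98) and FOXA3 (547 bp, 58). FOXA factors open chromatin in liver development, and CEBPD binds promoters of liver genes. A drug peak lay 234 bp from the CEBPD member, 360 bp from that of FOXA3 and 3158 bp from that of FOXA1. PROX1, ONECUT1 and NR5A2 had members outside promoters, the strongest of which scored 111, 79 and 97.

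Secreted liver proteins held a member in 5 of 14 genes and liver metabolic enzymes in 5 of 16, with 7 of 32 and 11 of 46 wide peaks. By peak these were 21.9% and 23.9%, near the background of 22.2%, and by gene 35.7% and 31.25% against 25.7%. Their wide control peaks had median scores of 184 and 179.5, also under the 313 of all genes, and the part of score was not tested. APOB, the protein of low density lipoprotein, had 2 in exons (scores 160 and 50), AMBP 1 at its promoter (125) and 1 in an intron (71), C3 1 in an exon (75) and CPS1, the first enzyme of the urea cycle, an intron peak (168) and a promoter peak (116). CPS1 also had a promoter peak in both lists, with 1196 in control and 389 in drug. Lipid and sterol control genes held a member in 10 of 24 genes (41.7%) and 12 of 46 wide peaks (26.1%), and their wide control peaks had a median score of 253. The strongest were at ACLY, which makes cytosolic acetyl-CoA (intron, 309), SCAP, the escort of sterol-regulated factors (intron, 265), and ABCA1, a cholesterol exporter (intron, 150). A drug peak lay 85 bp from the SCAP member and 209 bp from the ABCA1 member. The ABCA1 promoter scored 262 in control and 83 in drug. PPARG had the promoter member of that list (778 bp, score 94), and no drug peak lay within 54 kb of it.

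Integrins and focal adhesion genes held a member in 6 of 14 genes (42.9%) and 8 of 27 wide peaks (29.6%), beside a background of 25.7% and 22.2%. They were led by the adaptor BCAR1 (intron, 253), integrin ITGB6 (115) and vinculin, VCL (89). The wide control peaks of that list had a median score of 173, against 313 for all genes, and the part of score was not tested. TGF-beta and epithelial to mesenchymal transition genes had 6 of 22 genes (27.3%) and 11 of 40 wide peaks (27.5%), with promoter members at TGFB1 (186) and TGFBR3 (134). TGFBR3 also had a stronger promoter peak in control (229) and a promoter peak in drug (45). The Wnt list had 5 of 19 genes, led by TCF7L2 (intron, 209), TLE3 (150) and TLE1 (79), the Hippo list 5 of 17, led by LIMD1 (intron, 215), LATS2 (119) and VGLL4 (101), and the list of receptor kinases, MAPK and PI3K signalling 6 of 30, led by BRAF (intron, 568 bp from the start, 363) and FGFR4 (180 and 141).

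Genes of the cell cycle were near or under the background of 25.7% by gene and 22.2% by peak. Mitotic kinesins and related motors had 1 of 17 genes, KIF13B, with a promoter peak of 894 bp (score 107) and an intron peak of 627 bp (66), 2 of 19 wide peaks. KIF11, the spindle motor named in the study's title, had none. Spindle, kinetochore and G2 and M phase genes had 9 of 38 genes and 10 of 52 wide peaks, with promoter members at the checkpoint protein MAD2L2 (885 bp, 291) and at TRIP13 (760 bp, 97), which remodels checkpoint complexes, and members elsewhere at MAD2L1 (132) and WEE1 (119). BIRC5, the survivin gene, had a peak of 1418 bp in an intron (76). DNA replication genes had 6 of 25 genes and 7 of 34 wide peaks, led by MCM5 (termination site, 143), CDC45 (114, 196 bp from a drug peak) and POLE (77). The p53 targets and apoptosis genes had 6 of 26 genes and 6 of 43 wide peaks, led by GADD45A (15577 bp from the start, 308), CYCS (237) and MDM4 (229). Wide control peaks had a median score of 389 in the kinesin list, 364.5 in the spindle list, 540 in the replication list and 458 in the p53 list. Over all genes it was 313, and the part of score in these counts was not tested.

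Ribosomal protein genes had 2 of 30 genes, RPL5 and RPS24, and 2 of 36 wide peaks. The median score of their wide control peaks was 657.5, against 313 for all genes. The part of score in this count was not tested. The circadian list had 5 of 16 genes and 5 of 23 wide peaks (21.7%), which by peak is near the background of 22.2%. Promoter members of that list were at CSNK1D (199) and HLF (86). A member at the end of NR1D1 (149), a repressor of the clock, lay 155 bp from a drug peak. Because a gene with more wide peaks has more places for a member, counts by gene and by peak can differ, as they did for immediate early genes.

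Defining markers of liver cells were partly present. Of 10 hepatocyte markers 5 had a promoter peak in control and 4 in drug, ALB and AFP had none in either, and TTR had no control peak. Members were named, among others, to APOA1, APOB and CPS1. Promoter peaks in control were found for 1 of 6 cholangiocyte markers, 1 of 8 blood markers, 4 of 7 neuronal markers and 1 of 9 fibroblast and endothelial markers. TUBB3, a neuronal tubulin, was the only marker of another cell type with a member, at its promoter (540 bp, score 74). The part of other cell types in the set was not tested.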

How the data were processed

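The authors deposited a peak table for each library, holding MACS2 narrow peaks annotated with HOMER against hg38, per the file headers. Each peak's deposited score is whole. Under the usual MACS2 rule it equals −log10 of the q-value multiplied by 10, and its lowest value was 13 in both lists. Each list comes from a single library. The aligner, the tool versions and whether peaks were called against the IgG library are not stated in the labels or headers. Read depth is unknown. A single empty line (1) of the control list was skipped.

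Samples were grouped by title. Overlap was computed from 1-based coordinates with Python 3.11.15, pandas 2.3.3 and SciPy 1.17.1, and the interval code was tested on simulated data. Shares carry exact Clopper-Pearson 95% intervals. Gene IDs of 3137 of 3144 members were matched to RefSeq symbols of GRCh38.p14.

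The members and the gene lists were chosen with earlier results of these data known. Named genes were the 10 strongest and 10 widest members, the 6 genes with most members, the 6 strongest promoter members, the strongest of each class, up to 3 per list, and 3 on each side of the width threshold, with further genes chosen after their values were seen (NFKB2, TRAF3, ZDHHC11, KLF2, the smaller members of lists and the groups along chromosomes). Alternatives changed the width threshold, the overlap rule, the score limits, the chromosomes, repeats, merging and distances. Some named genes and the result of 1 gene list are not reported here.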

Additional observations from a re-analysis of the deposited data

How the results depend on the processing

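No paired analysis was possible because each group holds 1 library, and no replicate could be left out. Of 78 recomputed values 44 stayed within 1.5 times the count or within the interval of the value reported, and 34 moved. None has a direction or a test. Merging peaks within 100 bp changed nothing, because the smallest gap between peaks was 121 bp in both lists.

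The width threshold moved most values. At 400, 750 and 1000 bp the set held 6163, 638 and 133 peaks, the median score was 72, 96 and 106, the promoter share 13.0%, 16.1% and 17.3% and the intron share 49.6%, 40.1% and 39.9%. Peaks within about 13 kb of another made up 28.0%, 2.98% and 0%, and list genes with a member numbered 183, 38 and 8 against 108. A drug peak within 5 kb stood at 25.4% at 750 bp, and genes with a drug promoter peak at 35.3% against 38.5% at 1000 bp. With control scores of at least 50 the median score was 92, the promoter share 15.9%, the intron share 44.5% and the share near another member 15.7%. With peaks on all sequences the intron share was 44.8%. Where no drug peak was allowed within 1000 bp, 18.5% of the set had one within 5 kb and 36.6% had a gene with a drug promoter peak. With drug scores of at least 20 a drug peak lay within 5 kb of 25.5%. By distance to a start site of at most 1000 bp the promoter share was 23.4%. A drug peak lay within 1000 bp of 10.6% and within 20 kb of 71.2%. Another member lay within 5 kb of 7.28% and within 50 kb of 42.1%. By position of the start site 51.8% of members had a gene with a drug peak there. The changes in the list counts were computed as an alternative chosen after seeing the data. Unknown depth limits all peak numbers and widths.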
